A study of Caenorhabditis elegans with 3 samples.

Results

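The histone genes of Caenorhabditis elegans were examined for occupancy by DPL-1. A gene counted as a histone gene when it was protein-coding and its symbol began with his-, htz- or hil-, which held for 81 of the 19985 protein-coding genes of the ce11 (WBcel235) genome. Of these, 65 were core histone genes with another core gene starting within 5 kb, here called clustered. A further 6 encoded replacement or variant histones, 9 encoded linker histones, and his-73, a his- gene far from the core clusters, had a short annotated protein to which no histone type could be assigned. The study was chromatin immunoprecipitation with sequencing (ChIP-seq) in whole young adult hermaphrodites of strain YL507, which stably carries an insertion expressing DPL-1 with a C-terminal GFP-FLAG tag. Chromatin was sonicated and precipitated with an anti-GFP antibody, as the sample descriptions state, although the antibody field of the labels reads dpl-1. There were 3 biological replicates of this 1 group and no second genotype, stage or treatment, so every comparison was between genes, not between conditions. The labels name neither the promoter that drives the tagged protein nor the number of animals pooled per replicate.

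DPL-1 is the DP partner of the E2F transcription factors, with which it binds DNA as a heterodimer, and it belongs to the DREAM complex that represses cell cycle genes. Core histones H2A, H2B, H3 and H4 form the nucleosome, and the genes that supply them in S phase are present in many nearly identical, mostly intronless copies, arranged as divergent H2A/H2B and H3/H4 pairs that share the stretch between their 5' ends. Replacement histones such as H3.3 and H2A.Z are incorporated outside S phase and come mostly from single genes with introns, and linker histone H1 binds the DNA between nucleosomes.

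The sequences under the summits of his-37, his-24, hil-4, hil-3, htz-1, his-72 and his-3 are shown first, because several of them share letters that most histone promoters hold. The summit is the base at which a peak is highest. The windows below are the 101 bases centred on the summit in the pooled list (for his-51/his-52, the middle of a stretch without any summit), read from the RefSeq copy of the ce11 genome, 5' to 3' on the strand of the named gene. Capitals mark 2 kinds of match, on either strand: E2F-like letters (TTCCCGC or TTCGCGC or TTGCCGC or TTGGCGC) and a histone element, GTGTCC, any 3 bases, then CAG. The element was written down after these windows had been read, so its presence in them is not a finding. The windows shown are not simply the strongest. Those of his-60, his-61/his-62 and hil-7, with stronger summits than hil-3 and his-3, are not printed and lack the element. The his-59 window, with a stronger summit than his-3, is not printed and lacks it too. The his-67/his-68 window, also stronger than hil-3 and his-3 and not printed, holds the element. Of the 17 pooled summits at histone genes, 6 held it within 50 bp (35.3%). The windows were chrV:9546954-9547054 for his-37, chrX:14490005-14490105 for his-24, chrV:4754215-4754315 for hil-4, chrX:8159065-8159165 for hil-3, chrIV:4445863-4445963 for htz-1, chrIII:12369092-12369192 (minus strand) for his-72, chrV:16040593-16040693 for his-3 and chrV:8850267-8850367 (plus strand) for his-51/his-52.
his-37: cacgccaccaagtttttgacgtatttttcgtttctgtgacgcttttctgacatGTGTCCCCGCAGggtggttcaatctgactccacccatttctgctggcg
his-24: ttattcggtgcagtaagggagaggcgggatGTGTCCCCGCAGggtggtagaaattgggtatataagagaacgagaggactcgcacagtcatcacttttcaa
hil-4: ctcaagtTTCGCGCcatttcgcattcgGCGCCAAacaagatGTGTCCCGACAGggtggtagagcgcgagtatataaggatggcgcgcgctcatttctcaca
hil-3: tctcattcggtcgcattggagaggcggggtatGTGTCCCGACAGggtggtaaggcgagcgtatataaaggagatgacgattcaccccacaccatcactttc
htz-1: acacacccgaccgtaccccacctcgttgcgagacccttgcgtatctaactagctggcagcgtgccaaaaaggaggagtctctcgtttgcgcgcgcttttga
his-72: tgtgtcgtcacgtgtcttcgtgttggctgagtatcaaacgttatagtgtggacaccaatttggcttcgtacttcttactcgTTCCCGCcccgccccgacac
his-3: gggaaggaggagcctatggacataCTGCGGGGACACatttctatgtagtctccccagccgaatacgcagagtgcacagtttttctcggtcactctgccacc
his-51/his-52: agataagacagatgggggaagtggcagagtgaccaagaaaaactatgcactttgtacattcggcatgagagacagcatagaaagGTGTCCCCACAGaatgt

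Signal in what follows is the authors' peak strength, given as deposited and used to rank peaks within 1 list. The optimal IDR list (irreproducible discovery rate, a filter for peaks that rank alike in replicates) held 3295 peaks on ce11 with signals of 45.7 to 8927. They were the top 3295 of the pooled relaxed list, which had 30000 entries down to a signal of 7.46 and includes background regions by design. The relaxed lists of replicates 1, 2 and 3 had 28383, 30000 and 30000 entries. Read depths are not in these lists and are unknown here, so signals were compared between genes within a list and never between lists. In whole animals, strong occupancy in few cells and weak occupancy in many cells cannot be told apart.

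An IDR summit lay within 500 bp of the 5' end of 4 of the 81 histone genes (4.94%, exact 95% binomial interval 1.36 to 12.2, counting error only). Over all protein-coding genes the share was 11.8%. The 4 were his-37 (H4), htz-1 (H2A.Z), his-72 (H3.3) and his-24 (H1). By class this was 1 of 65 clustered core genes, 2 of 6 replacement and variant genes and 1 of 9 linker genes. The intervals were 0.0389 to 8.28% for the clustered, 4.33 to 77.7% for the replacement and 0.281 to 48.2% for the linker genes, and all 3 intervals overlapped one another.

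The strongest of these summits lay near htz-1, which encodes the H2A variant H2A.Z. Its signal was 487 in the pooled list, rank 75 of 30000. A summit within 100 bp was present in each replicate, at rank 134 in replicate 1, 61 in replicate 2 and 96 in replicate 3. All 3 replicates thus ranked it among their strongest peaks. The summit was 303 bp upstream of htz-1 but only 173 bp from the 5' end of wapl-1, which encodes the cohesin-release factor WAPL, so the peak cannot be given to 1 of the genes. The 101-base window above held neither E2F-like letters nor the histone element.

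The only clustered core gene with an IDR peak was his-37, one of 16 clustered H4 genes that encode the same protein. Its signal was 380.2, rank 125 in the pooled list. The ranks were 137, 148 and 72 in replicates 1, 2 and 3, with signals of 85.8, 199 and 102. Replicates 1 and 2 ranked it below the htz-1 summit and replicate 3 above it. The summit lay 101 bp upstream of his-37, outside any annotated gene, and the next 5' end, that of C50F4.6, was 912 bp away. Unlike the usual clustered copy, his-37 has an annotated intron in its coding sequence and no divergent partner.

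The linker gene his-24 and the H3.3 gene his-72 had weaker summits that moved more between replicates. The his-24 summit had signal 95.9, rank 1350, and lay 39 bp upstream of the 5' end, within an annotated noncoding RNA exon. Its ranks were 1395, 1408 and 4295, so replicate 3 put it below the first 3295 peaks. The his-72 summit had signal 82.4, rank 1674, and lay 92 bp upstream, with no second 5' end within 1 kb. Its ranks were 5308, 2185 and 1126, so replicate 1 put it below that level. The his-72 window was the only one of the 4 IDR windows with E2F-like letters, which 14.5% of all 3295 IDR windows held.

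The next histone summits fell just outside the IDR list. The linker gene hil-4 had signal 45.7 at rank 3298, only 3 places below its end, and the ranks were 14604, 3948 and 1945. The shared summit of the H4 gene his-67 and the H2A gene his-68 had signal 44.9 (rank 3355), that of the H4 gene his-60 44.7 (rank 3382) and that of the pair his-61 and his-62 (H2A and H2B) 38.8 (rank 3997). Replicate 1 was the low one throughout, with ranks of 20812 at his-67/his-68 and 26704 at his-61/his-62 and no summit within 100 bp of that at his-60, though one lay 158 bp upstream of the gene at rank 19393. Replicate 3 put his-60 at 15973 and replicate 2 at 3307. Replicates 2 and 3 ranked his-67/his-68 at 3548 and 2442 and his-61/his-62 at 3613 and 3534. The his-60 summit lay 265 bp inside the gene, in its own exon, and not in the stretch it shares with his-59.

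**Figure D1:**
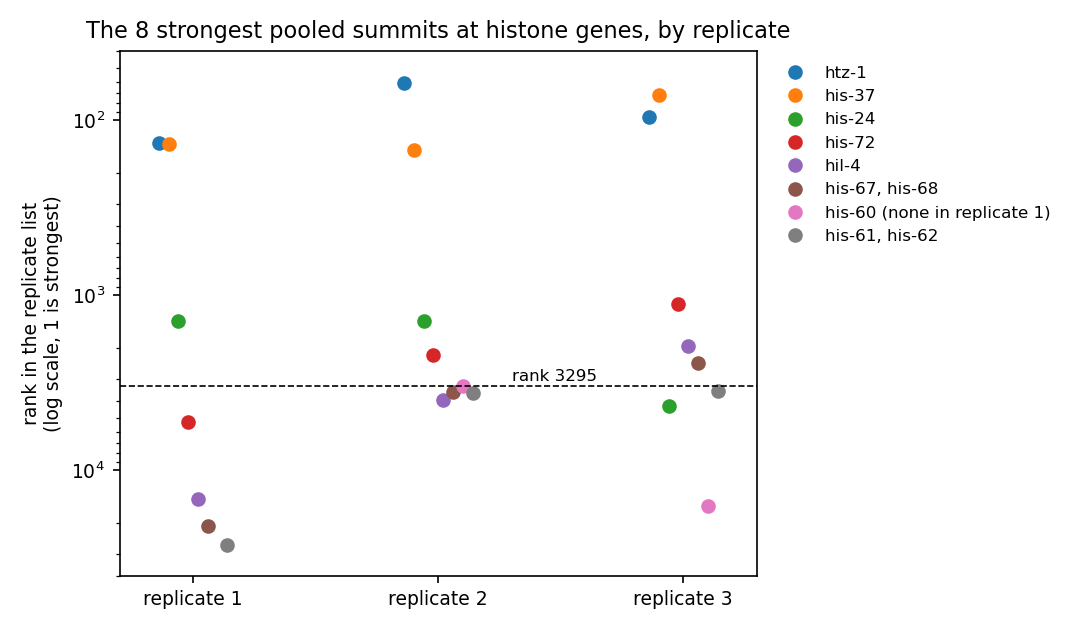
Rank of the 8 strongest pooled summits at histone genes in the relaxed list of each replicate (log axis, strongest at the top); each point is 1 summit, matched within 100 bp and set apart sideways for clarity. The htz-1 and his-37 points lie together at ranks 61 to 148 in all 3 replicates, while the points of hil-4, his-67/his-68 and his-61/his-62 fall to ranks 14604 to 26704 in replicate 1.

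In the pooled relaxed list a summit lay within 500 bp of 22 histone genes (27.2%, exact 95% interval 17.9 to 38.2), against 33.0% of all protein-coding genes. The counts in replicates 1, 2 and 3 were 22, 26 and 20, against backgrounds of 33%, 34.7% and 36%. Because divergent partners share summits, the 22 genes stood for 17 distinct summits. Of those 17, 8 had a summit within 100 bp in all 3 replicates, 3 in 2 replicates, 4 in 1 replicate and 2 in none. The median pooled signal of the 22 genes was 27.5, close to the 27.1 of the 6594 protein-coding genes with a summit.

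By class, the pooled list reached 14 of 65 clustered core genes (21.5%), 3 of 6 replacement and variant genes and 5 of 9 linker genes. Among the replacement genes, the H3.3-like his-74 had signal 8.98, near the list's end, with no summit within 100 bp in any replicate. Within 500 bp of its 5' end, replicates 2 and 3 had a summit, at ranks 21759 and 18999. The H3.3 gene his-71 had no pooled summit but had one within 500 bp in replicates 1 and 2, at ranks 15511 and 11253, and his-69 and his-70 had none in any of the 5 lists. Among the linker genes, hil-7 and hil-3 had signals of 27.8 and 27.2, and hil-5 had 8.94. A summit within 100 bp of these was present in 1 replicate each, and hil-7 and hil-3 had a summit within 500 bp of the 5' end in 2 replicates. The remaining linker genes hil-1, hil-2, hil-6 and hil-8 had no summit in any list. The plot of signal by class shows this spread.

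**Figure D2:**
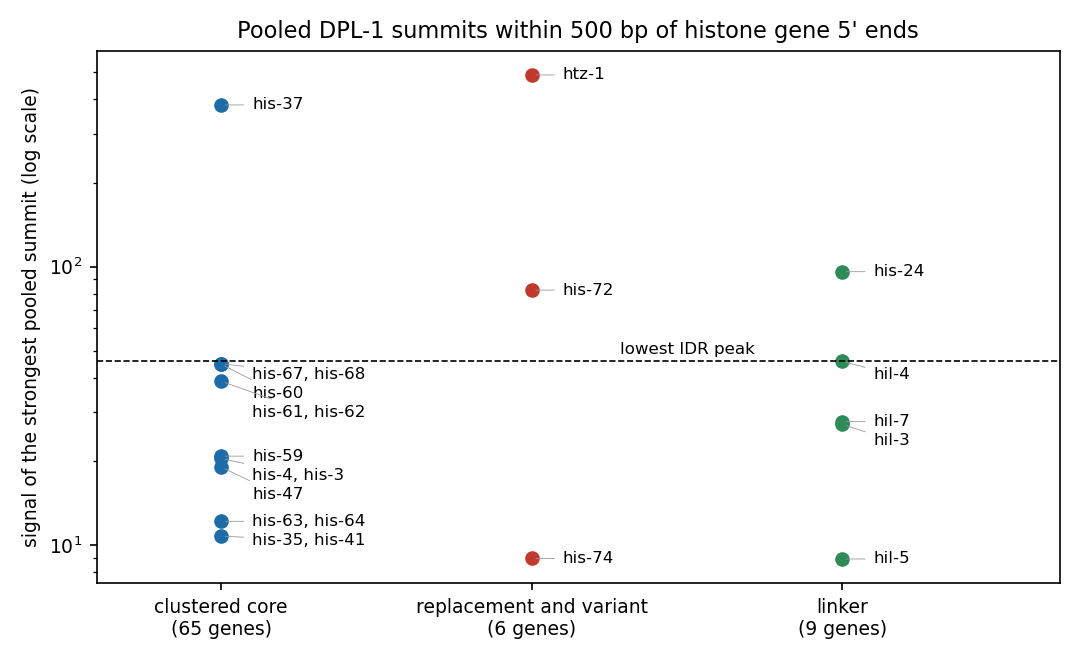
Signal of the strongest pooled summit within 500 bp of the 5' end (log axis), 1 point per summit, for the 3 histone classes; the dashed line is the weakest IDR peak, at 45.7. Only his-37, htz-1, his-72 and his-24 lie clear above the line, and genes without a summit are not drawn.

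The clustered copies differ from the other classes in how far their sequence is repeated in the genome. For every protein-coding gene, the share of 50-base words within 500 bp of the 5' end that occur more than once in the genome was counted. The median share was 93.3% for clustered core genes, and 25 of them were wholly repeated. For replacement and linker genes the median was 0 and the highest share 2.84%, and over all protein-coding genes the median was also 0. The labels and provenance notes give neither the read length nor the treatment of reads that match several places, so whether reads from repeated words were counted is unknown. Summits in repeated sequence were listed, though few. Of the 30000 pooled summits, 70 (0.233%) had 90% or more repeated words within 50 bp, and none of the 17 at histone genes did.

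Across the genome, 5' ends of repeated sequence carried almost no summit. Of the 262 protein-coding genes with 90% or more repeated words, 1 had a pooled summit (0.382%), and 37 of the 262 were clustered histone genes. That gene was the H2A gene his-47, and its summit lay 478 bp downstream of its 5' end, past the gene, where no 50-base word was repeated. The other 225 genes, none of them histone genes, had 0 summits, which allows a share of up to 1.33%. Among genes with 50 to under 90% repeated words the share was 5.42%, and among those with none it was 35.7%. Of the 51 histone genes without a summit in any list, 35 had 90% or more repeated words and 9 had under 10%.

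**Figure D3:**
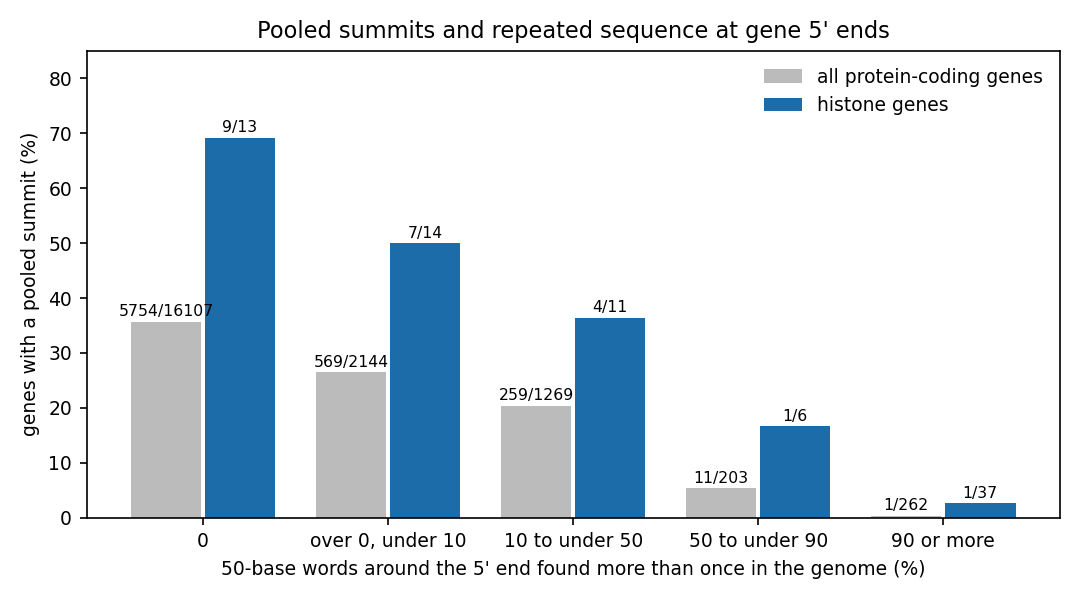
Share of genes with a pooled summit within 500 bp of the 5' end (bars from 0), by the share of repeated 50-base words around that 5' end, for all protein-coding genes in grey and histone genes in blue, with genes with a summit over all genes above each bar. The share of all genes falls from 35.7% with no repeated word to 0.382% with 90% or more, and histone genes fall from 9 of 13 to 1 of 37.

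Histone genes with little repeated sequence were then taken alone. Under 10% repeated words left 27 histone genes, and 16 of them had a pooled summit (59.3%), against 34.6% of all protein-coding genes under the same limit. They comprised 8 of 12 clustered core, 3 of 6 replacement and 5 of 9 linker genes. In the pooled list the shares were 66.7%, 50% and 55.6%, and several of the 8 clustered genes shared a summit with their divergent partner. An IDR summit was present at 4 of the 27 (14.8%), against 12.4% of all genes under that limit. These were 1 of 12 clustered (8.33%), 2 of 6 replacement (33.3%) and 1 of 9 linker genes (11.1%), so the order of the classes differed between the lists. No set test was run on these counts, because the genes were chosen with earlier results of these data known.

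The divergent pairs were also counted as shared promoters. There were 31 pairs of clustered core genes, whose 5' ends were 227 to 368 bp apart (median 258). A pooled summit lay between the 5' ends in 6 pairs, and these were all among the 11 pairs whose stretch held under 50% repeated words. None of the other 20 pairs had a summit there, in the pooled list or in any replicate. The 6 pairs were his-67/his-68, his-61/his-62, his-60/his-59, his-4/his-3, his-63/his-64 and his-35/his-41, with signals of 44.9, 38.8, 20.9, 20.5, 12.2 and 10.8. Of the 5 pairs under that limit without a pooled summit, his-6/his-5 had one in replicate 1 at rank 24465, and his-31/his-32, his-8/his-7, his-2/his-1 and his-38/his-40 had none between their 5' ends in any list.

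The pair his-51/his-52 shows what repeated means here. Its 292-bp stretch between the 5' ends occurred with the same letters in 4 pairs of chromosome V (his-51/his-52, his-54/his-53, his-21/his-22 and his-20/his-19), and none of them had a summit. The stretch between his-4 and his-3 was equally long, 88.7% identical to it and found once, and had a summit of signal 20.5 at rank 9222, seen in replicates 2 and 3 at ranks 8289 and 20008 and not in replicate 1. The stretch between his-8 and his-7 was 95.5% identical and had no summit, with 14.4% repeated words. Both printed windows, his-3 and his-51/his-52, hold the histone element.

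Whole clusters differed in the same measure, with exceptions. The cluster of 13 genes over 10.9 kb on chromosome II and those of 6 and 8 genes on chromosome V, where the median gene had wholly repeated words, contained no summit in any of the 5 lists. The 4 genes his-61, his-62, his-60 and his-59 on chromosome IV, with a median of 6.62%, contained 4 pooled summits of 14.7 to 44.7, and all 4 genes had a summit within 500 bp. The 3 genes his-35, his-41 and his-37 on chromosome V, with a median of 0.105%, contained 4 summits of 9.2 to 380.2. Against this order, his-38/his-40 on chromosome X, with a median of 13%, contained no summit in any list, and the 5 genes from his-8 to his-39 on chromosome V, with 44.6%, contained only 1 weak summit in replicate 1. The 4 genes his-55, his-56, his-58 and his-57 on chromosome IV, with 95.2%, contained a pooled summit of 27.7 in an intron of his-57, where no 50-base word was repeated, and summits in all 3 replicate lists. Just outside the cluster with his-37, an IDR summit of signal 214 (rank 365) lay 852 bp from the 5' end of his-35 and 210 bp from that of mdf-1, a spindle checkpoint gene.

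**Figure D4:**
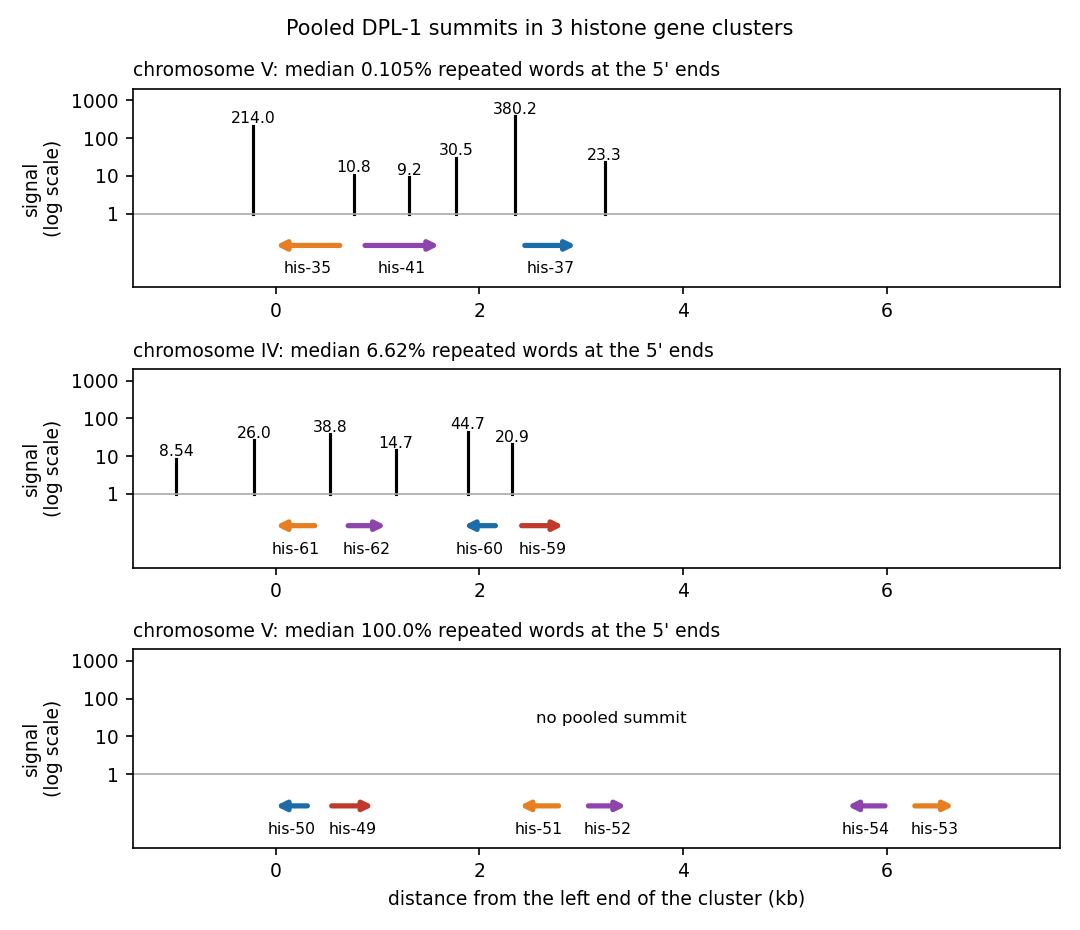
Genes (arrows, pointing along transcription; H2A orange, H2B purple, H3 red, H4 blue) and pooled summits (vertical lines, height on a log axis, labelled with signal) in 3 histone clusters, against the distance from the left end of the cluster in kb. The 2 upper clusters with few repeated words carry summits between and beside their genes, up to 380.2 at his-37, and the lower one, wholly repeated, carries none.

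Genes with split coding sequence held all 4 IDR peaks. Of the 17 histone genes with 2 or more coding exons, 11 had a pooled summit, and of the 64 with 1 coding exon, 11 had one and none had an IDR peak. Over all protein-coding genes, split or not, the shares were 33.0% in the pooled list and 11.8% in the IDR list. Split and unsplit genes were not counted apart genome-wide, so whether these counts are particular to histone genes is unknown. Among the core genes the split ones were his-35, his-41, his-37 and, in some isoforms, his-57, and 3 of these 4 had a pooled summit. Gene structure and repeated sequence overlapped in part: all 9 linker genes and 4 of 6 replacement genes were split and none had over 2.84% repeated words. The split his-57 had 96.3% repeated words, and unsplit genes such as his-67, his-68, his-59, his-60, his-31, his-32, his-69 and his-70 had under 10%. The part of either in the count was not tested.

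Counted per gene, E2F-like letters were about as common in histone promoters as elsewhere. In the window from 250 bp before to 50 bp after the 5' end, 9 of 81 histone genes held a match (11.1%), against 9.2% of all protein-coding genes. Among the 9 were his-72, hil-4 and his-37, although the his-37 summit window held none. The rest were the pairs his-47/his-48, his-58/his-57 and his-66/his-65. The stretch between their 5' ends occurs in 3 copies with 1 match each, so the 9 genes are not 9 separate sequences. Within 50 bp of a pooled summit, the share was higher, 3 of 17 at histone genes (17.6%: his-72, his-60 and hil-4), against 5.63% of all 30000 summits. The his-60 summit lay in its own exon, and the 30000 include background regions. In the hil-4 window above the E2F-like letters stood on both strands, 1 match on each. The CHR letters TTCGAA or TTTGAA, named for the cell cycle gene homology region that DREAM contacts, were in 17 of 81 histone promoters (21%) and in 68.9% of all promoters. Clustered core genes held them in 8 of 65 cases, mostly in those same copies, and replacement genes in 5 of 6. A missing match says nothing about the factor.

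The histone element, searched on both strands, was in the promoter window of 61 of 81 histone genes (75.3%) and of 79 of all 19985 genes (0.395%). The holders were 55 of 65 clustered core genes and 6 of 9 linker genes (hil-2, hil-3, hil-4, hil-5, hil-7 and his-24). None of the 6 replacement and variant genes had it. The element lay between the 5' ends of 27 of the 31 divergent pairs, including all 20 of the repeated ones. A pooled summit was present at 17 of the 61 histone genes with the element and at 5 of the 20 without it, beside 33.0% of all protein-coding genes. Under 10% repeated words, the counts were 11 of 14 genes with the element and 5 of 13 without it. All protein-coding genes under that limit stood at 34.6%. Divergent partners that share a summit were each counted. Since the letters were picked from histone windows, these shares describe the genes and test nothing.

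The distance from the element to the summit varied among the members with both. Because the letters were read from windows centred on some of these summits, a short distance there was given by the choice. From the middle of the element nearest to the summit, it was 3 bp at hil-4, 9 bp at his-37, 12 bp at hil-3, 14 bp at his-24, 20 bp at his-4/his-3 and 39 bp at his-67/his-68. It was 52 bp at his-59, 53 bp at his-61/his-62, 58 bp at his-63/his-64 and 65 bp at hil-7. The summits of hil-5, his-60 and his-47 lay 324, 374 and 611 bp from it. Among all 3295 IDR windows, 3 held the element (0.091%), those of his-37 and his-24 and one of signal 46.3 whose nearest 5' end, that of rga-5, was 1355 bp away. The element was also present at clustered copies without a summit and in the promoters of 18 other protein-coding genes. Of these 18, 5 had a pooled summit and 2 an IDR summit, near the 33.0% and 11.8% of all protein-coding genes.

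In the his-37, his-24, hil-4 and hil-3 windows above, GGTGGT follows the CAG directly. These letters too were read from those windows, so the 4 genes hold them by choice. Over all 79 promoters with the element, GGTGGT followed it in 6, which were these 4, hil-5 and 1 gene that is no histone gene. Of the 55 clustered core genes with the element, his-37 was the 1 that had it.

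**Figure D5:**
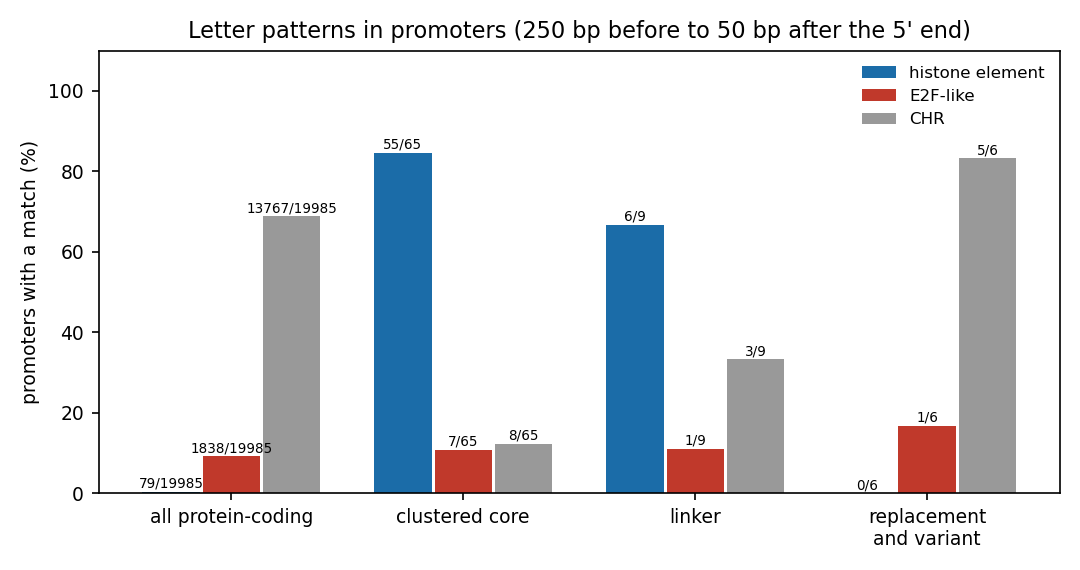
Share of promoters (250 bp before to 50 bp after the 5' end, bars from 0) with the histone element, E2F-like letters or CHR letters on either strand, for all protein-coding genes and 3 histone classes, with promoters with a match over all above each bar. The element was in 55 of 65 clustered core and 6 of 9 linker promoters and in none of 6 replacement promoters, while CHR letters were in 8 of 65, 3 of 9 and 5 of 6.

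Genes that process, carry and deposit histones were counted the same way. Of a list of 20 such genes, 12 had an IDR summit within 500 bp of the 5' end (60%) and 16 a pooled one. Over all protein-coding genes the shares were 11.8% for the IDR list and 33.0% for the pooled list. The 20 genes were chosen with earlier results known. The strongest was lin-53, an RbAp46/48-type histone-binding protein of DREAM and other complexes, with signal 653 (rank 41) and replicate ranks of 40, 45 and 47. The stem-loop binding protein gene cdl-1, which acts on replication-dependent histone mRNA, had signal 194 (rank 441) and replicate ranks of 642, 413 and 523.

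Other chaperones followed at lower signals. The chaperone gene nasp-2 had 189, and chaf-2 and chaf-1, subunits of the chromatin assembly factor that deposits new H3 and H4 behind the fork, had 188 and 46.8. The ASF1 gene unc-85 had 166, emb-5 (SPT6) had 156 and hira-1, of the H3.3 chaperone HIRA, had 144. The FACT subunit genes hmg-4 and spt-16 had 126 and 103, though the hmg-4 summit was nearer to T20B12.3. The H2A/H2B chaperone gene nap-1 had 105 and the centromeric H3 gene hcp-3 had 88. The other 8 genes had no IDR peak, and among them nasp-1 came nearest with 44.8 at rank 3367.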

How the data were processed

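Peaks were deposited as narrowPeak lists on ce11 and ce10, and only the ce11 lists were used. Per the files' own provenance notes, 1 relaxed list per replicate and 1 pooled list, both peaks with background made as input for IDR, and 1 optimal IDR list were deposited. Their peak signal and, as a summit offset with no unit but bp, the last column are the authors' values. No label or header names the peak caller, the read length or a filter on mapping. The summit was the peak start plus its offset, written 1-based. Genes and 5' ends came from Ensembl release 115, and symbols from RefSeq by WormBase identifier, because Ensembl names are shared between histone copies. A gene counted when a summit lay within 500 bp of its 5' end. Summits of different lists counted as the same within 100 bp. Histone type came from conserved protein stretches. Repeated words of 50 and 36 bases were counted on both strands, and the counting was tested on simulated sequence. Intervals are exact (Clopper-Pearson), 95%. Scripts used Python 3.11.15, numpy 2.4.6, scipy 1.17.1 and Biopython 1.88. The named genes were every histone gene with an IDR peak, every linker and replacement gene, the 5 strongest of each core class with their partners, and the listed deposition genes with an IDR peak. Core genes named beyond these were chosen after their values were seen. Members and lists were chosen with earlier results of these data known, and the histone element and the letters behind it after summit windows had been read. The labels call the 3 replicates biological and say no more of how they were grown.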

Additional observations from a re-analysis of the deposited data

How the results depend on the processing

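With a window of 250 bp, 1 replacement gene kept an IDR peak, while all genes fell from 11.8% to 7.71%. With 1000 bp the IDR counts rose to 7 histone genes, 2 clustered core and 4 replacement, while all genes rose from 11.8% to 14.7%. The gains, his-35, his-69 and his-74, had summits nearer to mdf-1, rcq-5 and ccch-3. The pooled counts at 1000 bp were 34 histone genes, 23 clustered and 5 replacement, with all genes at 40%. Giving each summit to its nearest gene left 1 replacement gene with an IDR peak, his-72, with all genes at 9.05%. Asking for the first 3295 peaks of all 3 replicates left 2 histone genes, htz-1 and his-37, that is 1 replacement and 0 linker genes, with all genes at 5.99%. Leaving out each replicate gave IDR counts of 2 to 3 histone, 1 to 2 replacement and 0 to 1 linker genes. For these, the other 2 replicates both had to hold the summit among their first 3295 peaks. The pooled counts were 10 to 13 histone, 6 to 9 clustered and, each time, 2 linker genes. For the pooled counts, the other 2 replicates both had to hold the summit at any rank. All genes then stood at 6.28 to 7.58% and 12.8 to 15.8%. The first 10000 pooled peaks left 9 clustered genes, with all genes at 20.6%. The other 52 recomputed counts were within 1.5 times. No paired analysis was possible because there is only 1 group. Depths are not in the files, so a missing summit does not show that DPL-1 was absent.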
